A study of Mus musculus with 6 samples.

Results

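The 10 genes described here belong to the circadian clock and its output: Arntl (now also called Bmal1), Per1, Per2, Per3, Nr1d1, Nr1d2, Dbp, Tef, Bhlhe40 and Bhlhe41. They were taken by the gene name in the scanner files, which gave 17 of the 41174 probes other than controls and 10 of 28867 named genes or unnamed features. All 17 probes were well above background on all 6 arrays and none was saturated, so all 10 genes were among the 18998 tested. RNA came from epididymal white adipose tissue, the visceral fat beside the testis, of male C57BL/6 mice aged 9 to 10 weeks. One group was wild type, and the other was patDp/+, which carries an extra, paternally inherited copy of the chromosome 7 stretch that matches human 15q11-13. There were 3 animals and 3 single-colour arrays in each group, and each of the 3 slides held a wild type and a patDp/+ array. The duplication is in the germline and is thus present in every cell type of the tissue. The labels do not state the time of day at which the animals were killed, so each array was also asked at which side of the clock cycle it lay.

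The clock is a feedback loop of transcription factors. ARNTL pairs with CLOCK and activates genes that carry E-boxes, among them Per1, Per2, Per3, Nr1d1, Nr1d2, Dbp and Tef. The PER proteins then block the pair, while NR1D1 and NR1D2 (REV-ERB alpha and beta) repress Arntl itself through RORE sites, so that Arntl transcripts are high when those of Dbp and Nr1d1 are low. DBP and TEF are PAR bZIP factors that act on D-boxes. BHLHE40 and BHLHE41 (DEC1 and DEC2) bind the same E-boxes and repress them, and their genes also respond to signals from outside the clock, such as low oxygen, cytokines and hormones. In fat, as in liver, these transcripts swing strongly over the day.

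Sequences of the kinds of site named above are shown where the members' promoter windows hold them. RefSeq promoter windows on GRCm38.p6, from 250 bases before to 50 after a transcript start, were given for 8 of the 10 genes in 11 windows, and Per2 and Bhlhe40 had no entry. They were searched on both strands for the E-box CACGTG, the D-boxes TTATGTAA and TTACGTAA, the RORE cores TAGGTCA and TGGGTCA, and the CRE TGACGTCA. Each line gives 30 bases, 5′ to 3′ on the strand of the gene, with the motif in capitals.
Per1 (E-box, chr11:69098771-69098800, plus strand): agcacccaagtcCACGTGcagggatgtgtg
Tef (E-box, chr15:81802534-81802563, plus strand): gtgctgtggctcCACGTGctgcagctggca
Tef (E-box, other start, chr15:81811264-81811293, plus strand): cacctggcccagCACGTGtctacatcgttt
Bhlhe41 (E-box, chr6:145865556-145865585, minus strand): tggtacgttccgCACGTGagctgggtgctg
Per3 (D-box, chr4:151044852-151044881, minus strand): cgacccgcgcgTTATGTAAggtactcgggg
Per3 (second D-box, chr4:151044805-151044834, minus strand): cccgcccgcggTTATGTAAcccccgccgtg
Arntl (RORE, chr7:113207530-113207559, plus strand): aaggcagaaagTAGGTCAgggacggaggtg

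The E-box was in the windows of 3 of these 8 genes and in those of 8.09% of all 27025 genes (7.15% of all 32851 windows). D-boxes were in the windows of 1.23% of all genes (1.06% of windows), and among the members Per3 alone had any, with a pair of them at positions -205 and -158 from its start. The RORE core was in the windows of 7.35% of all genes (6.45% of windows) and, among the members, in that of Arntl, 31 bases after a start. The CRE was in the windows of 2.03% of all genes (1.79% of windows) and in none of the members'. A match is a description of the letters, and a window without one says nothing of more distant sites.

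Levels are given as log2 of the processed signal relative to the 75th percentile of the same array, so a value of 0 is as bright as that percentile and a step of 1 is a doubling. Since probes differ in brightness for reasons other than abundance, the level of one gene is not set against that of another. Across probes, which are not independent replicates, the lowest r between any arrays was 0.987. The genotype labels were checked with genes of the duplicated stretch. Snrpn had a log2 difference of 1.19 ± 0.13 (SE, 2.28-fold) and Ndn of 1.08 ± 0.13 (SE, 2.12-fold), with no overlap of the groups. All 10 adipocyte markers, such as Adipoq and Plin1, were measured, with a mean level over markers of 7.11 to 7.24 in wild type and 7.07 to 7.18 in patDp/+ arrays. Of 9 markers of epididymis and testis, Crisp1, Lcn5 and Lcn8 were well above background on 0 arrays and Adam7 on 1, so these were not tested. The other 5 were well above background, Prm1, Prm2, Tnp1 and Tnp2 on 6 arrays and Rnase10 on 5. Their mean was -3.99 to -3.88 in wild type and -4.29 to -3.93 in patDp/+ arrays. Rnase10 was lower in patDp/+ fat without overlap (-0.59 ± 0.28, SE), as were 5.84% of all genes, and the groups overlapped for the rest. In such bulk tissue, fewer cells of a type and less RNA per cell cannot be told apart. The background of patDp/+ replicate 1 was the highest, with a mean net signal of its negative controls of 36.7 against 29.0 to 31.6 on the other arrays.

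Among the 10 genes, Bhlhe40 stood furthest apart between the genotypes. No gene of all 18998 passed an adjusted p under 0.05 (0%; limma with Benjamini-Hochberg adjustment, smallest adjusted p = 0.343), so no member is called changed. At an unadjusted p under 0.05 there were 2 of the 10 members, Bhlhe40 and Bhlhe41, against 5.61% of all genes tested (1066 genes, 513 higher and 553 lower, or 523 and 302 with normexp background correction). With the slide as a block there were the same 2 members, against 5.1% of all genes. The groups did not overlap for 3 members, against 11.1% of all genes. Of these, Bhlhe40 and Bhlhe41 were higher in patDp/+ fat, as were 5.25% of all genes, and Tef was lower, as were 5.84%. The median log2 difference was 0.06 over the members and -0.01 over all genes, and 5 of the 10 members had a lower mean in patDp/+ fat, as did 52.5% of all genes. The members' median turned sign without patDp/+ replicate 2 (-0.08) or wild type replicate 2 (-0.01) and was 0.10 without wild type replicate 1.

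**Figure D1:**
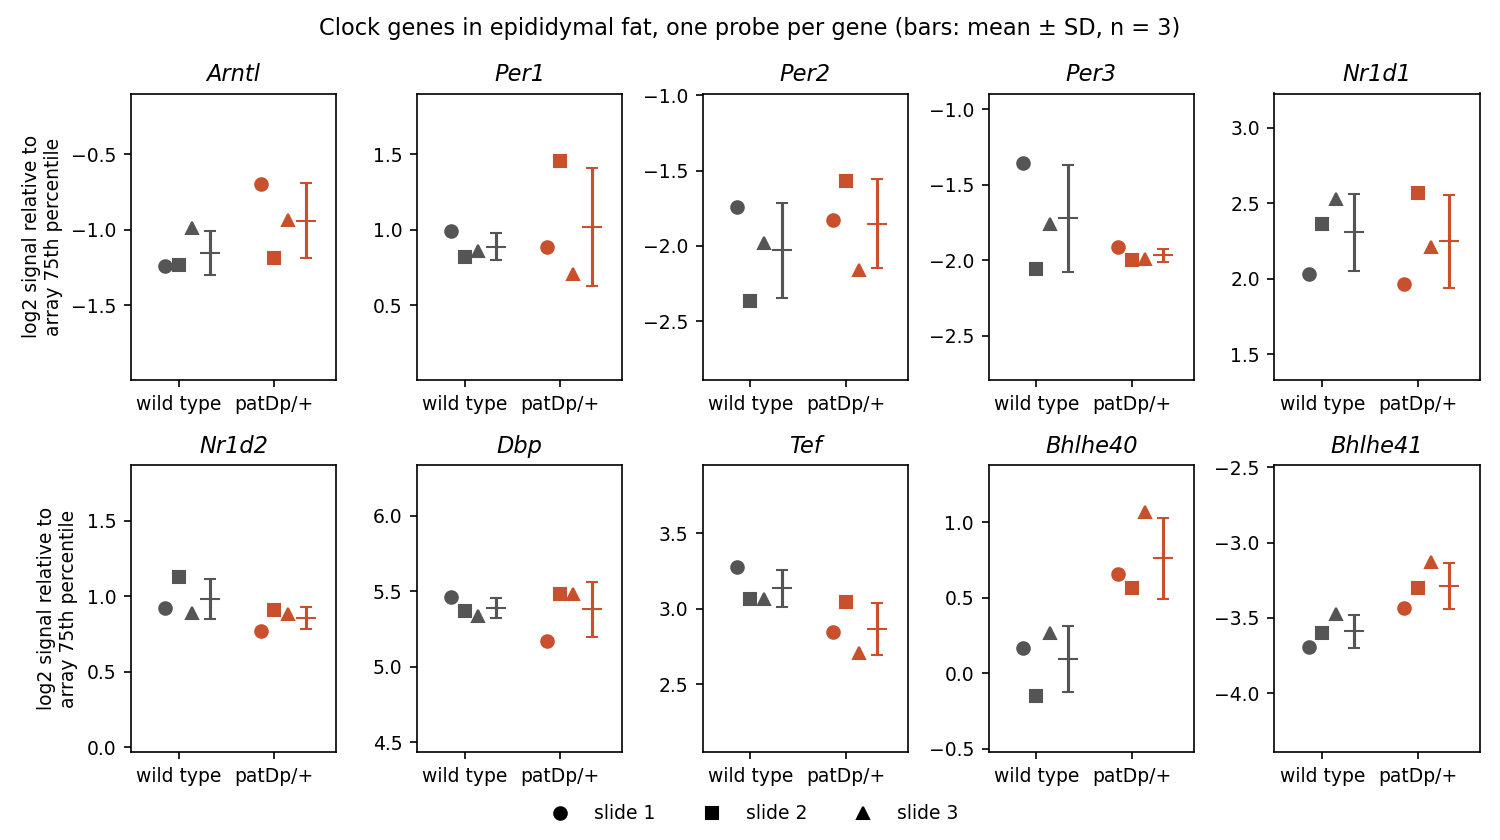
Log2 signal of the 10 genes relative to the 75th percentile of each array (vertical axis, the same span of 1.9 in every panel) in wild type (grey) and patDp/+ (orange) fat, with a symbol per slide and the mean ± SD at the right of each group (n = 3). Bhlhe40 and Bhlhe41 lie higher and Tef lower in all 3 patDp/+ arrays, while the groups overlap for the other 7 genes.

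The repressor genes come first. Bhlhe40 was at 0.17, -0.15 and 0.27 in wild type replicates 1, 2 and 3 and at 0.66, 0.57 and 1.07 in patDp/+ replicates 1, 2 and 3. The highest wild type array thus lay below the lowest patDp/+ array. The means were 0.10 ± 0.22 (SD, n = 3) and 0.76 ± 0.27 (SD, n = 3), a log2 difference of 0.67 ± 0.17 (SE) or 1.59-fold, with a 95% interval of 0.25 to 1.09 (limma adjusted p = 0.868). Within slides 1, 2 and 3 the patDp/+ array was higher by 0.49, 0.72 and 0.80. With the slide as a block, which is also the replicate number, the difference had an SE of 0.10 (limma adjusted p = 0.897). Over 16 settings of the processing, leaving out each array included, the difference was between 0.51 and 0.77. Bhlhe40 was at an unadjusted p under 0.05 in all 16 of them, and the lowest adjusted p was 0.445. As Bhlhe40 has a single probe, the filters and the probe rule could not move its difference. The slide block and the variance model could not either, and all settings drew on the same arrays.

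Bhlhe41, its close relative, has a pair of probes. The brighter, at chr6:145811275-145811334 on mm9, the build of the scanner files, was at -3.69, -3.60 and -3.47 in wild type and at -3.43, -3.30 and -3.13 in patDp/+ replicates 1, 2 and 3. All patDp/+ arrays were above all wild type arrays, by a narrow margin. The log2 difference was 0.30 ± 0.11 (SE), or 1.23-fold, with a 95% interval of 0.04 to 0.57 (limma adjusted p = 0.872), and 0.26, 0.30 and 0.34 within slides 1, 2 and 3. The dimmer probe, at chr6:145812686-145812745, had 0.18 ± 0.26 (SE) with overlapping groups. Both probes were dim, with a processed signal of 68 to 110 for the brighter and 34 to 60 for the dimmer over the 6 arrays. The value of Bhlhe41 was less settled than that of Bhlhe40. It was 0.11 with the deposited table and 0.59 with normexp background correction, and its unadjusted p was under 0.05 in 6 of the 16 settings. That p was lost when the array of wild type replicate 1 was left out (0.25), and likewise with replicate 2 of wild type (0.30), replicate 2 of patDp/+ (0.31) or its replicate 3 (0.22).

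Immune cell markers also differed in mean beside Bhlhe40, a gene that macrophages and T cells also express. All 6 T cell markers tested had higher means in patDp/+ fat, with a median log2 difference of 0.42. Their mean level was -3.17 to -2.95 in wild type and -2.70 to -2.43 in patDp/+ arrays, and differed by 0.52, 0.52 and 0.47 within slides 1, 2 and 3. Of the 6 markers, 3 were higher at an unadjusted p under 0.05, as were 2.7% of all genes. Cd8a, which marks cytotoxic T cells, had the largest difference among the 6 (1.35 ± 0.13, SE, limma adjusted p = 0.343). Cd3e had the smallest (0.08 ± 0.09, SE). Cd4 was well above background on at most 2 arrays and was not tested. All 8 macrophage markers had higher means (median 0.27), with levels of 2.80 to 2.98 in wild type and 2.85 to 3.35 in patDp/+ arrays. Within slides 1, 2 and 3 the mean over the macrophage markers differed by 0.37, 0.42 and -0.01. Of these 8 markers, 0 were at an unadjusted p under 0.05. All 5 B cell markers tested had lower means (median -0.60), with levels of -2.94 to -2.39 in wild type and -3.71 to -2.75 in patDp/+ arrays. Of these, 1 was lower at an unadjusted p under 0.05, as were 2.91% of all genes. Pax5 was well above background on 0 arrays and was not tested. The part of these cells in the difference of Bhlhe40 was not tested.

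Among the markers of other cells, all 6 endothelial genes had lower means in patDp/+ fat (median -0.19, mean level 1.60 to 1.82 in wild type and 1.45 to 1.67 in patDp/+ arrays). All 4 mesothelial genes had higher means (median 0.12, level 1.88 to 2.21 and 2.09 to 2.41). The 3 skeletal muscle genes tested had a median of 0.01 (level -2.54 to -2.04 and -2.23 to -1.82). They did not move together, with Acta1, skeletal alpha-actin, at 1.30 ± 0.27, Actn3 at -0.51 ± 0.31 and Tnnt3 at 0.01 ± 0.43 (all ± SE). Myh4 and Ckm were well above background on 0 arrays and were not tested. The 10 adipocyte markers had a median of -0.09 and the 5 of epididymis and testis of -0.14.

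Other genes that answer the same outside signals as Bhlhe40 were examined as lists. Of 9 hypoxia-responsive genes, 0 were higher and 1 lower at an unadjusted p under 0.05, where 2.7% of all genes were higher and 2.91% lower, and the list's median was -0.08. The lower gene was Adm, which encodes the vasodilator adrenomedullin (-0.24 ± 0.09, SE). The next in order of p were Ankrd37 (0.25 ± 0.15), the mitophagy receptor gene Bnip3 (-0.22 ± 0.17) and the glucose transporter gene Slc2a1 (0.14 ± 0.10). Of 11 glucocorticoid-responsive genes tested, 1 was higher at that p and the median was 0.07. That gene was Cdkn1a, a cell cycle inhibitor (0.44 ± 0.15), and the metallothionein genes Mt2 (0.43 ± 0.31) and Mt1 (0.21 ± 0.20) and the kinase gene Sgk1 (-0.17 ± 0.14) followed. Zbtb16 was not among the genes tested. Of 15 immediate early genes, 1 was higher, and the median was 0.18. It was Egr2, a zinc finger factor (0.77 ± 0.22), followed by Fosl2 (0.30 ± 0.15), Junb (0.31 ± 0.16) and Atf3 (0.48 ± 0.27), all ± SE. The mean over the immediate early list differed by 0.58, -0.10 and 0.13 within slides 1, 2 and 3. When each array was left out in turn, the medians were between -0.10 and -0.03 for the hypoxia list (the latter without wild type replicate 2), between 0.10 (without wild type replicate 1) and 0.31 (without wild type replicate 2) for the immediate early list, and between -0.01 (without patDp/+ replicate 1) and 0.19 (without patDp/+ replicate 3) for the glucocorticoid list. With normexp background correction the glucocorticoid median was -0.05 and the hypoxia median -0.01. Whether any of these signals has a part in the difference of Bhlhe40 was not tested.

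The activator of the loop, Arntl, differed little between the groups. It was at -1.24, -1.24 and -0.99 in wild type and at -0.70, -1.19 and -0.94 in patDp/+ replicates 1, 2 and 3. The highest array was patDp/+ replicate 1, and the groups overlapped. The log2 difference was 0.21 ± 0.15 (SE; 95% interval -0.15 to 0.57; limma adjusted p = 0.912). Leaving out patDp/+ replicate 1 gave 0.09, leaving out its replicate 2 gave 0.34, and array weights gave 0.10. The probe behind these values lies at chr7:120456978-120457037 (mm9), and its 60 bases are shown because Arntl has no other probe.
Arntl probe: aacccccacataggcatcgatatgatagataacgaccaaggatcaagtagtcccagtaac

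The Period genes, whose proteins close the loop, overlapped between the groups. Per1 was at 0.99, 0.81 and 0.86 in wild type and at 0.88, 1.46 and 0.71 in patDp/+ replicates 1, 2 and 3, so patDp/+ replicate 2 stood above the other arrays. The log2 difference of Per1 was 0.13 ± 0.20 (SE; 95% interval -0.35 to 0.61; limma adjusted p = 0.968), and -0.09 without that array. It was 0.28 with patDp/+ replicate 3 left out and 0.05 with normexp. Per2, by its brighter probe (chr1:93313046-93313105, mm9), was at -1.74, -2.36 and -1.98 in wild type and at -1.83, -1.57 and -2.16 in patDp/+ replicates 1, 2 and 3. Here too patDp/+ replicate 2 was the highest array.

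The log2 difference of Per2 was 0.17 ± 0.21 (SE; limma adjusted p = 0.956). Leaving out single arrays moved it, to 0.01 (wild type replicate 2), 0.03 (patDp/+ replicate 2), 0.32 (wild type replicate 1) and 0.33 (patDp/+ replicate 3), and normexp gave 0.36. The mean of both its probes gave 0.31 ± 0.10 (SE). With that mean and with normexp Per2 was at an unadjusted p under 0.05, which makes 2 of the 16 settings. The dimmer Per2 probe, at chr1:93336538-93336597 (mm9), had 0.44 ± 0.16 (SE) in the fit of single probes (limma adjusted p = 0.955), with overlapping groups. Its processed signal was only 36 to 71 over the 6 arrays. Over the 6 arrays the probes did not follow each other (r = -0.0933, a description over 6 arrays). Per3 was at -1.35, -2.06 and -1.76 in wild type and at -1.92, -2.00 and -1.99 in patDp/+ replicates 1, 2 and 3. Wild type replicate 1 was the highest array, and the patDp/+ arrays lay close together. Its log2 difference was -0.24 ± 0.18 (SE; limma adjusted p = 0.926). It was -0.06 with wild type replicate 1 left out, -0.41 with wild type replicate 2 left out (then at an unadjusted p under 0.05) and -0.02 with normexp background correction.

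The nuclear receptor genes that repress Arntl overlapped between the groups. Nr1d1, by its brightest probe (chr11:98630526-98631028, mm9), was at 2.03, 2.36 and 2.52 in wild type and at 1.96, 2.57 and 2.21 in patDp/+ replicates 1, 2 and 3. Both arrays of slide 1 were low. The log2 difference was -0.06 ± 0.20 (SE; 95% interval -0.54 to 0.41; limma adjusted p = 0.987), and its sign turned on leaving out wild type replicate 3 (0.05) or patDp/+ replicate 1 (0.08). The other Nr1d1 probes had -0.04 ± 0.11 and 0.07 ± 0.15 (SE). Nr1d2 was at 0.92, 1.13 and 0.89 in wild type and at 0.77, 0.91 and 0.88 in patDp/+ replicates 1, 2 and 3, with wild type replicate 2 the highest. Its log2 difference was -0.12 ± 0.09 (SE; 95% interval -0.36 to 0.11; limma adjusted p = 0.932), but -0.05 with wild type replicate 2 left out, -0.08 with patDp/+ replicate 1 left out and -0.20 with normexp background correction.

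Dbp and Tef, the output factors, differed from each other in pattern. Dbp was at 5.47, 5.37 and 5.34 in wild type and at 5.17, 5.49 and 5.48 in patDp/+ replicates 1, 2 and 3. patDp/+ replicate 1 was the lowest array. The means were 5.39 ± 0.07 and 5.38 ± 0.18 (SD, n = 3 each), a log2 difference of -0.01 ± 0.11 (SE) with a 95% interval of -0.28 to 0.26 (limma adjusted p = 0.996). Leaving out patDp/+ replicate 1 gave 0.09, leaving out wild type replicate 1 gave 0.03, and array weights gave 0.02, while normexp background correction gave -0.17.

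Tef, by its brightest probe (chr15:81656928-81656987, mm9), was at 3.28, 3.07 and 3.07 in wild type and at 2.85, 3.05 and 2.71 in patDp/+ replicates 1, 2 and 3. All patDp/+ arrays were lower, although patDp/+ replicate 2 lay just under the nearest wild type array. The log2 difference was -0.27 ± 0.12 (SE; 95% interval -0.55 to 0.01; limma adjusted p = 0.875), and -0.43, -0.02 and -0.36 within slides 1, 2 and 3. A second probe at chr15:81646554-81646613 had -0.28 ± 0.12 (SE), without overlap. The remaining pair of Tef probes had -0.19 ± 0.17 and -0.06 ± 0.16 (SE), and the mean of all 4 gave -0.20. With normexp background correction the 4 probes, from brightest to dimmest, had -0.40, -0.06, 0.22 and 0.34. Tef was at an unadjusted p under 0.05 in 3 of the 16 settings. In the fit of single probes, 4 of the 17 member probes were at an unadjusted p under 0.05, against 5.15% of all 27975 probes, and the groups did not overlap for 4, against 10.4%. These were the chosen probes of Bhlhe40 and Bhlhe41 and the 2 Tef probes given above without overlap, while for the dim Per2 probe the groups overlapped at an unadjusted p under 0.05.

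**Figure D2:**
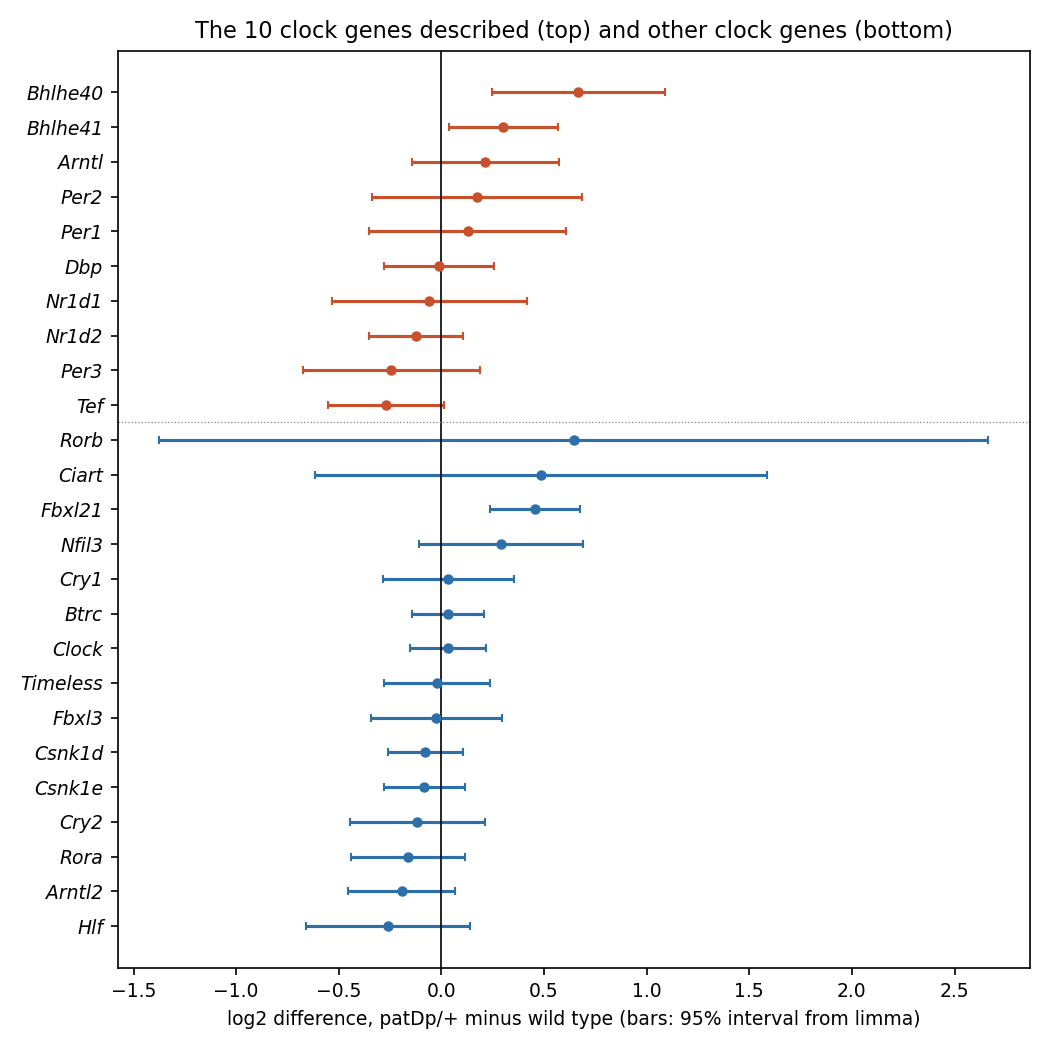
Log2 difference between patDp/+ and wild type fat (horizontal axis) with its 95% interval from limma for the 10 genes (orange, above the dotted line) and 15 other measured clock genes (blue, below). The intervals of Bhlhe40 (0.25 to 1.09), Bhlhe41 (0.04 to 0.57) and Fbxl21 lie to the right of 0, and all others include 0.

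The other clock genes gave little further difference. Of 17 on the list, 16 were tested, since Npas2, a partner of ARNTL, was not among the genes kept. The list's median log2 difference was -0.02 (0.00 without patDp/+ replicate 3, -0.06 without wild type replicate 3 and 0.10 with normexp). There were 7 means higher and 9 lower. Only 1 gene was at an unadjusted p under 0.05, against 5.61% of all genes. That gene was Fbxl21, which encodes a ubiquitin ligase subunit for cryptochromes, at -4.43, -4.62 and -4.40 in wild type and at -4.09, -4.03 and -3.96 in patDp/+ arrays (0.46 ± 0.09, SE; limma adjusted p = 0.738). Its signal was dim, with means of -4.48 in wild type and -4.03 in patDp/+ fat. The dimmer Bhlhe41 probe had -4.52 and -4.33. Clock, the partner of ARNTL, had 0.03 ± 0.08, and the cryptochrome genes Cry1 and Cry2, whose proteins act with PER, had 0.03 ± 0.13 and -0.12 ± 0.14. Cry1 was dim too, with means of -5.13 in wild type and -5.10 in patDp/+ fat. Rora, a gene for an activator at RORE sites, had -0.16 ± 0.11. Nfil3, a repressor at D-boxes, had 0.29 ± 0.16, and Hlf, the third PAR bZIP gene, -0.26 ± 0.16 (all ± SE).

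Ciart, an E-box repressor gene, was dim and spread widely, with -4.34, -3.95 and -3.96 in wild type and -4.63, -3.35 and -2.81 in patDp/+ replicates 1, 2 and 3. The kinase genes Csnk1d and Csnk1e, which mark PER proteins for decay, had -0.08 ± 0.08 each (SE). Among 9 output genes the median was -0.04 (between -0.17 and 0.07 with single arrays left out, namely replicates 2 and 3 of patDp/+). At an unadjusted p under 0.05, 1 was higher and 1 lower, where 2.7% of all genes were higher and 2.91% lower. Wee1, a cell cycle kinase gene driven through E-boxes, had 0.44 ± 0.18, and Nampt, the NAD salvage enzyme gene, had -0.29 ± 0.10 (SE), each with an adjusted limma p of 0.87 or more. Wee1 was dim, with means of -5.65 in wild type and -5.21 in patDp/+ fat, and its groups overlapped. Neither the lipid receptor gene Ppara (-0.29 ± 0.13) nor Usp2 (-0.09 ± 0.15) was at that p.

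Sampling phase was then read array by array. Were an animal taken at another time of day, Arntl could be shifted one way and Dbp, Nr1d1, Nr1d2, Per3 and Tef the other. Each gene was centred on its mean over the 6 arrays, and the mean of those 5 was subtracted from Arntl. This phase index was -0.32, -0.22 and -0.00 in wild type and 0.53, -0.20 and 0.20 in patDp/+ replicates 1, 2 and 3. It is a description of 6 animals and carries no test. The 5 opposed genes did not all move together over these arrays. Their r with each other reached from -0.399 (Nr1d1 and Per3) to 0.674 (Per3 and Tef), and was -0.186 for Nr1d2 and Per3. The index is thus an average over genes that were not ordered alike.

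patDp/+ replicate 1 stood at one end, with Arntl 0.35 above its mean and the 5 opposed genes 0.18 below theirs on average. All of these 5 were below their mean on that array, Nr1d1 by most (-0.31) and Per3 by least (-0.07). At the other end, wild type replicate 1 had Arntl at -0.19 and the opposed genes at 0.12, but Nr1d1 at -0.25. patDp/+ replicate 2 lay among the wild type arrays, so the genotypes overlapped on the index, with means of -0.18 ± 0.16 in wild type and 0.18 ± 0.37 in patDp/+ fat (SD, n = 3 each). The spread from lowest to highest array was 0.85, and 0.79 with Per1 and Per2 added to the opposed genes. With normexp background correction patDp/+ replicate 1 no longer stood alone, at 0.48 beside 0.42 for patDp/+ replicate 3. These 2 arrays were at 0.53 and 0.23 with quantile normalization and at 0.49 and 0.23 with the deposited table.

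**Figure D3:**
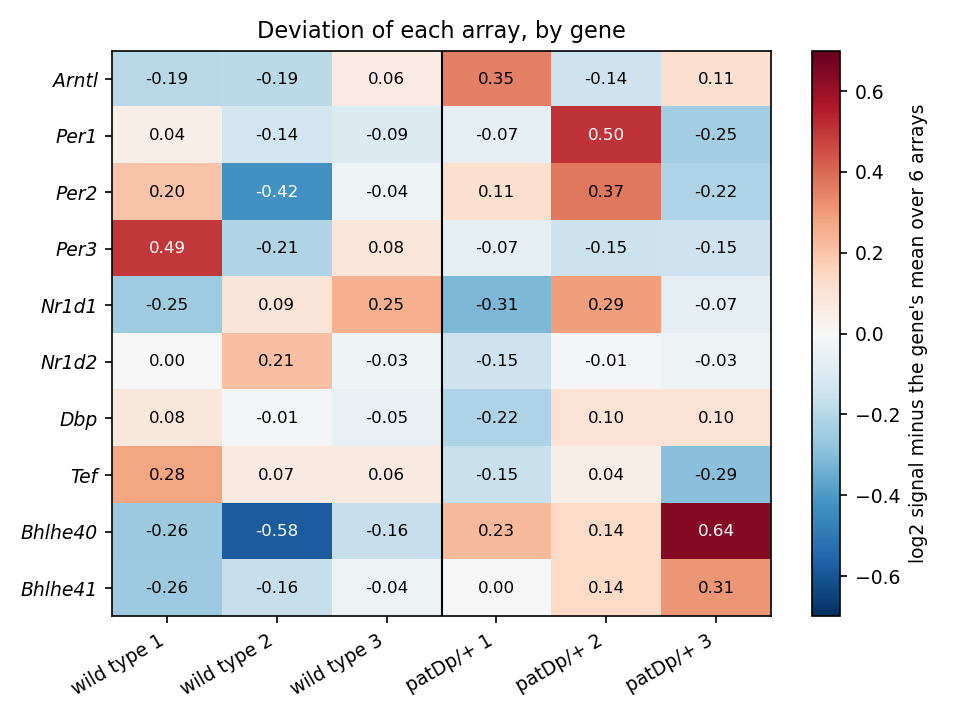
Log2 signal of each gene on each array minus the gene's mean over the 6 arrays (colour and printed value; genes in rows, arrays in columns, wild type left of the line). patDp/+ replicate 1 has Arntl at 0.35 with all 5 opposed genes below 0, while Bhlhe40 is below 0 in every wild type and above 0 in every patDp/+ array.

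The part of sampling phase in the difference of Bhlhe40 was not tested. From the lowest to the highest array, Dbp spanned 1.24-fold, Nr1d2 1.28-fold, Arntl 1.46-fold, Bhlhe41 1.48-fold, Tef 1.49-fold and Nr1d1 1.52-fold. Per3 spanned 1.63-fold, Per1 1.68-fold, Per2 1.73-fold and Bhlhe40 2.33-fold. These ranges mix genotype, animal and slide and are not swings over the day.

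Most members varied more than genes of like brightness, taken as those whose mean level was within 0.5 log2 units. The SD over the 6 arrays was 0.26 for Per1 against a median of 0.11 among 2233 such genes, 0.25 for Nr1d1 against 0.10, and 0.22 for Arntl against 0.14. Dbp (0.12 against 0.11) and Nr1d2 (0.12 against 0.11) were close to that median, and of the 10 members Bhlhe41 alone was below it (0.20 against 0.22). These SDs include the difference between genotypes. Such spread was not particular to the members. Every tested gene of the glucocorticoid and immediate early lists, and most of the hypoxia list, was above its median too.

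**Figure D4:**
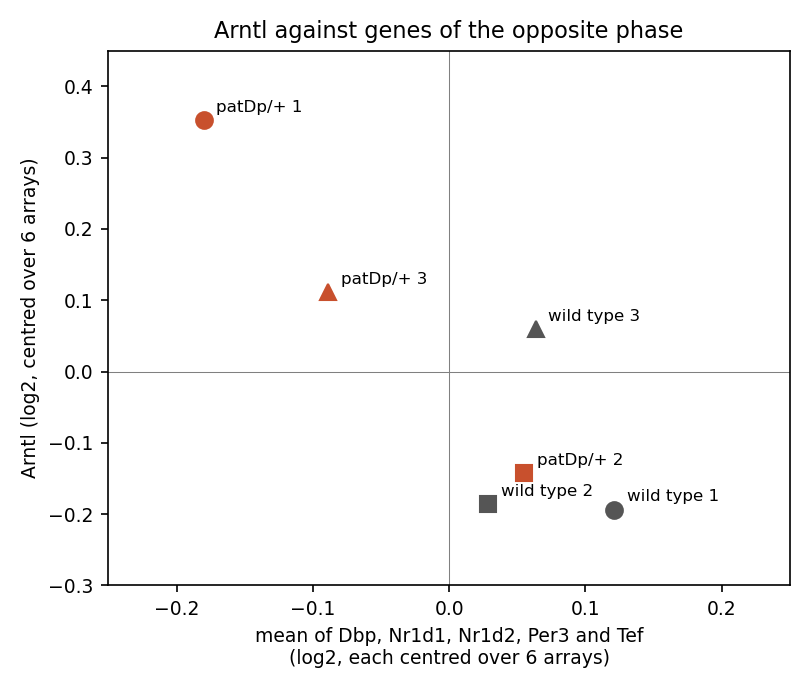
Arntl (vertical axis) against the mean of Dbp, Nr1d1, Nr1d2, Per3 and Tef (horizontal axis), both log2 and centred over the 6 arrays, for wild type (grey) and patDp/+ (orange) animals with a symbol per slide. patDp/+ replicate 1 (Arntl 0.35, opposed genes -0.18) lies at the upper left, and patDp/+ replicate 2 among the wild type arrays.

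Across the 6 arrays, Arntl was compared with each of the 9 other members, by exact permutation of the pairings (two-sided, 9 relations with Benjamini-Hochberg adjustment). None passed the adjusted threshold. Nr1d2 had r = -0.761 (exact permutation p = 0.101, adjusted 0.325) and rho = -0.943 (exact permutation p = 0.0167, adjusted 0.15). Tef had r = -0.724 (exact permutation p = 0.107, adjusted 0.325) and rho = -0.886 (exact permutation p = 0.0333, adjusted 0.15). Dbp had r = -0.721 (exact permutation p = 0.108, adjusted 0.325) and rho = -0.371 (exact permutation p = 0.497, adjusted 0.846). In all, 6 of the 9 members had a negative r to Arntl.

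Without patDp/+ replicates 1 and 3, the arrays farthest from the median of Arntl, r was -0.501 for Nr1d2, -0.407 for Tef and -0.652 for Dbp. When each array was left out in turn, r was between -0.927 and -0.572 for Nr1d2 and between -0.814 and -0.646 for Tef. For Dbp it was between -0.922 and -0.105, the latter without patDp/+ replicate 1. After the genotype mean was taken off, r was -0.650 for Nr1d2, -0.570 for Tef and -0.827 for Dbp.

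Of the members whose r was not clearly negative, Bhlhe40 had r = 0.61 (exact permutation p = 0.224, adjusted 0.503; rho = 0.829, exact permutation p = 0.0583, adjusted 0.175) and Bhlhe41 had r = 0.426 (exact permutation p = 0.408, adjusted 0.575; rho = 0.714, exact permutation p = 0.136, adjusted 0.306). Off the genotype mean these were 0.333 and -0.0303. Per1 had r = -0.388 (exact permutation p = 0.447) and rho = -0.314 (exact permutation p = 0.564). Per2 had r = 0.00399 (exact permutation p = 0.992) and rho = -0.143 (exact permutation p = 0.803). Per3 had r = -0.25 (exact permutation p = 0.619) and rho = -0.0286 (exact permutation p = 1). Nr1d1 had r = -0.418 (exact permutation p = 0.394) and rho = -0.257 (exact permutation p = 0.658), with r = 0.558 without the same arrays. The adjusted values of these 4 genes were 0.575 or more.

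The genes with a symbol whose profile over the 6 arrays was most like that of Arntl, by Pearson r among 14585, were Il3ra (0.986), Rab5a (0.978), Ccl3 (0.976), Galnt7 (0.973) and Kctd3 (0.964). For Dbp they were Sec22c (0.990), Ribc1 (0.983), Donson (0.977), Pkd2l2 (0.976) and Tnfrsf26 (0.969). With 6 arrays and so many genes, r over 0.95 was reached by 12 and 13 genes, and no clock gene of the lists was among the leading 5 of either.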

How the data were processed

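Epididymal fat RNA of 6 mice was hybridised singly to Agilent mouse arrays. Per the file headers, the scanner software was Feature Extraction 9.5.1.1. Its processed intensity is background-subtracted and detrended within an array, not scaled between arrays. The authors also deposited log2 values of all 6 arrays whose columns share a median; how their background was corrected is not stated. Per the submitters' processing notes, limma 3.18.2 and Agilent Feature Extraction 9.5 were used, with no role given. Medians of the deposited columns were 7.63 on the log2 scale.

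Outlier spots were left out and spots of a probe averaged. Probes well above background on at least 3 of 6 arrays were kept (27975 of 41174), and a gene was read from its kept probe with the highest mean. Names were updated through RefSeq accessions (27050 probes; table for GRCm38.p6). Groups came from the sample titles and were compared over all genes with limma 3.58.1 in R 4.3.3 (two-sided, Benjamini-Hochberg). On simulated data with the spread of the 18998 tested genes, limma recovered 66 of 100 log2 changes of 1 and 90 of 100 of 2. Those changes were planted together, which eases the adjusted threshold. On the real arrays Snrpn (1.19) and Ndn (1.08) had an adjusted limma p of 0.343 and 0.367. The simulated shares thus do not give the power reached here, and changes of that size can go uncalled. The number of arrays limits precision. The limma p-values rest on the spread between arrays of different animals, so animal and array effects are not separated.

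All members, all measured clock and output genes, the 4 smallest p of each signal list, and the 5 genes most like Arntl and Dbp were eligible to be named; 1 measured clock gene is counted in its list but not reported here. Members and lists were chosen with earlier results of these data known. Alternatives were other background corrections, normalizations, filters, probe rules, blocks, weights and variance models, and leaving out each array. Same-numbered arrays share a slide, per the file headers; their deviations from the group means correlated at 0.105, -0.09 and -0.0405.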

Additional observations from a re-analysis of the deposited data

How the results depend on the processing

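No setting of the 16 gave a gene at an adjusted limma p under 0.05. The count of all genes at an unadjusted p under 0.05 was 1066, 1721 with array weights and between 751 and 1782 when each array was left out, with the highest count without patDp/+ replicate 3. The slide as a block, which is the same fit as the replicate block, gave 969 genes (5.1%), 0 at an adjusted p under 0.05 and 2 members at that p, Bhlhe40 and Bhlhe41, and changed no call. Of the 10 members, 1 was at that p with quantile normalization and 1 with array weights, and between 1 and 2 without single arrays (1 without wild type replicate 1 or patDp/+ replicate 3). Of the 17 member probes, 2 were at that p with normexp background correction, against 4. The sign of Dbp turned with array weights (0.015) and reached from -0.064 to 0.094 without single arrays, that of Nr1d1 from -0.22 to 0.082 and that of Per1 from -0.092 to 0.28. For r with Arntl, Per3 gave 0.283 with normexp and -0.499 to 0.447 without single arrays. Per2 gave -0.0476 with quantile normalization, -0.28 with the deposited table and -0.477 to 0.278 without single arrays. Bhlhe41 gave -0.00361 with the deposited table, and Nr1d1 -0.798 to 0.145 without single arrays. The cause of these changes was not tested. Arntl, Per2, Bhlhe40 and Bhlhe41 kept a positive and Per3, Nr1d2 and Tef a negative difference in all 16 settings. These are values by gene, and the dimmest pair of Tef probes was positive with normexp background correction. The time of day of sampling is not known, and 3 animals a group limit the phase reading. Arntl, Per1, Per3, Nr1d2, Dbp and Bhlhe40 rest on single probes.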
